A study of Mus musculus with 4 samples.

Results

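The lysosomal proton pump, membrane and hydrolase genes were followed on 4 arrays of splenic dendritic cells (DC). They were taken as every probe set annotated with exactly 1 gene symbol that starts with Atp6v or Atp6ap, or that is 1 of 20 listed symbols. This gave 66 of 45037 probe sets and 37 of 17097 genes. Of the 37 genes, 20 belong to the pump or its accessory proteins (36 probe sets) and 17 are listed genes (30 probe sets). No probe set carried the symbols Cd63, Neu1 or Mcoln2 alone, so these 3 listed genes are not analysed here. Cathepsins, the lysosomal proteases, were not among the chosen genes.

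The DC were isolated by CD11c positive selection from spleens of MARCO-/- mice, which lack the scavenger receptor MARCO, and of wild-type (WT) mice, all 8 to 12 weeks old and per the labels on 1 C57BL/6 background (spelled C56BL/6 there). Cells pooled from 5 to 6 mice were cultured overnight with PBS, or with LPS at 100 ng/ml, a bacterial ligand of the receptor TLR4. Each genotype and treatment was measured on 1 array, 4 in all. Without replicates no test could be made and the ratios have no error. A gene counts as higher or lower where its intensities differ 2-fold or more, as in the methods of the study.

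Lysosomes are acidic organelles that degrade what a cell takes up or recycles. The vacuolar ATPase (V-ATPase) pumps protons into them: its V1 sector in the cytosol hydrolyses ATP, and its V0 sector in the membrane carries the protons. Soluble hydrolases in the lumen work at this acid pH, heavily glycosylated membrane proteins line the inside, and the transcription factor TFEB drives many lysosomal genes through an element built around the letters CACGTG. In DC, lysosomal activity is known to be limited compared with that of macrophages, and the acidity of the compartment is known to change as DC mature.

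Values are intensities on a linear scale as the authors normalized them, and each gene is represented by its brightest probe set. The median of all intensities was 4.87, and values near it are background. The defining genes of DC were bright with PBS, such as H2-Aa of MHC class II (4999.8 in WT and 5231 in MARCO-/-) and Itgax, which encodes CD11c (548 and 621), although Itgax had 12.9 and 16.4 with LPS. Of 9 DC markers, 5 were at least 2-fold lower with LPS in WT and 6 in MARCO-/-, with a median log2 ratio of -1.31 and -1.36 over the 9. Marker genes of other cells were present too. Of 10 red pulp macrophage markers, 9 were at least 2-fold lower with LPS than with PBS in each genotype, and summing their intensities gave 1896 (PBS) and 409.5 (LPS) in WT, and 3106 and 591 in MARCO-/-. Neutrophil and NK cell markers were lower with LPS as well, with 4 of 5 neutrophil markers at least 2-fold lower in each genotype, and 3 of 4 NK cell markers in WT and 4 of 4 in MARCO-/-. The 4 stromal markers summed to 16.2 with WT PBS, 1059 with WT LPS, 340 with MARCO-/- PBS and 21.5 with MARCO-/- LPS. Most of the high sums came from Col3a1, with 959 in WT LPS and 315 in MARCO-/- PBS. Col1a1 and Dcn were also highest with WT LPS (29.5 and 67.0), while Col1a2 lay between 2.88 and 3.03, at background. The 3 skeletal muscle markers summed to 10.4, 262, 102 and 11.4 in the same order of arrays. In RNA of a mixed preparation, fewer cells of a type and less RNA per cell cannot be told apart.

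With LPS 5 of 11 genes of lumenal proteins were at least 2-fold lower in each genotype and none was higher. Within 2-fold were 18 of 20 pump genes in MARCO-/- and 19 in WT, and Lamp1 and Lamp2 in both. Most genes of the array were within 2-fold too, 14617 of 17097 in WT and 14993 in MARCO-/-. In WT, 8 of the 37 genes (Atp6v0a2, Cln3, Gusb, Hexa, Laptm5, Man2b1, Manba and Psap) were at least 2-fold lower with LPS, where 8.31% of all genes were. None was at least 2-fold higher, against 6.20% of all genes. In MARCO-/-, 8 genes (Atp6v0a2, Gusb, Hexa, Laptm5, Lipa, Man2b1, Psap and Tfeb) were lower, against 5.98% of all genes, and Atp6v0a1 alone was higher, against 6.32%. The 37 genes are brighter than most, with 31 of them above the median of all intensities on at least 1 array. Among the 10955 genes of the array that meet this condition, 12.9% were lower and 9.62% higher in WT, and 9.33% lower and 9.86% higher in MARCO-/-. The median log2 ratio of LPS over PBS over the 37 genes was -0.15 in WT and -0.16 in MARCO-/-, against 0.05 and 0.00 over all genes.

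The responses of both genotypes, which come from separate arrays, can be set side by side. The same 6 genes (Atp6v0a2, Gusb, Hexa, Laptm5, Man2b1 and Psap) were at least 2-fold lower in both, which is 16.2% of the 37 genes. Of all genes, 4.55% were lower in both, and 7.10% of those above the median of all intensities. Of these 6 genes, 4 encode lumenal proteins. The sign of the log2 ratio was the same in both genotypes for 30 of the 37 genes.

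**Figure D1:**
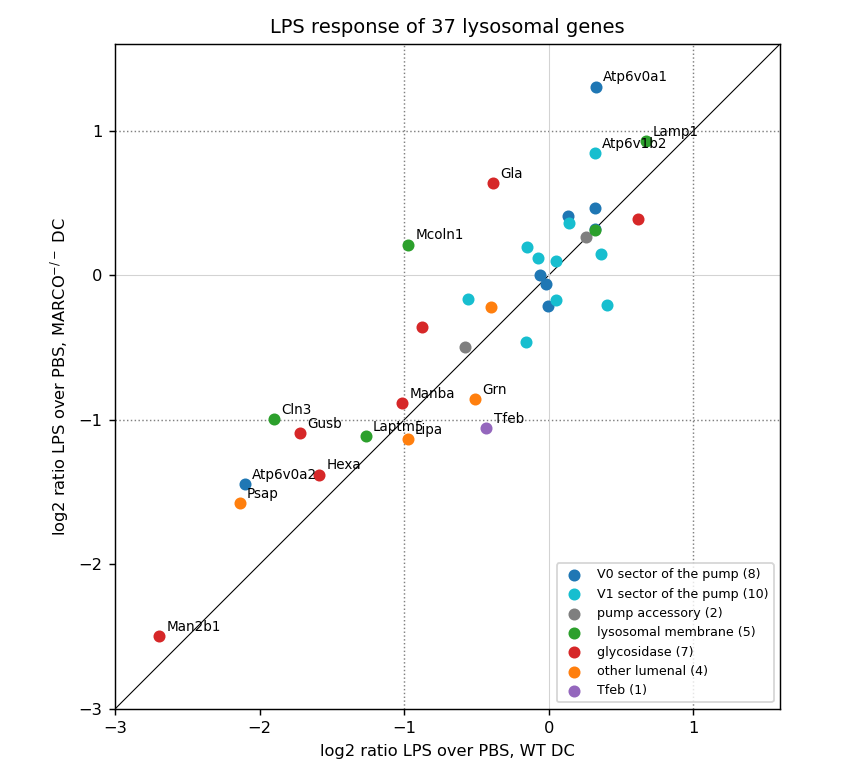
log2 ratio of LPS over PBS in WT DC (horizontal axis) and in MARCO-/- DC (vertical axis) for the 37 genes, coloured by role; each gene is 1 point, the dotted lines mark 2-fold and the diagonal marks equal responses. Man2b1 lies lowest at -2.70 and -2.50, the pump genes other than Atp6v0a2 and Atp6v0a1 lie within 2-fold of 0, and Gla and Mcoln1 lie below 0 in WT and above 0 in MARCO-/-.

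The glycosidases trim sugars from glycoproteins, glycolipids and glycogen. Of 7 measured, 4 were at least 2-fold lower in WT and 3 in MARCO-/-, and none was higher. Their median log2 ratio was -1.02 in WT and -0.89 in MARCO-/-. Man2b1, the lysosomal alpha-mannosidase, had an intensity of 672 with PBS and 104 with LPS in WT, and 776 and 138 in MARCO-/-. Both LPS arrays lay far below both PBS arrays, by 6.49-fold in WT and 5.64-fold in MARCO-/-.

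Hexa encodes the alpha chain of beta-hexosaminidase, which removes a sugar from the ganglioside GM2. It had 376 with PBS and 125 with LPS in WT (3.01-fold lower), and 443 and 169.9 in MARCO-/- (2.61-fold lower). Gusb, which encodes beta-glucuronidase of glycosaminoglycan breakdown, had 303 and 92 in WT (3.30-fold lower), and 283 and 133 in MARCO-/- (2.13-fold lower). The second probe set of Gusb was 4.65-fold lower in WT but 1.70-fold lower in MARCO-/-, so that the call in MARCO-/- rests on the brighter one, and the mean of both misses 2-fold there (-0.93 on the log2 scale).

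Manba, the lysosomal beta-mannosidase, lay at the threshold. It had 61.3 with PBS and 30.3 with LPS in WT (2.02-fold lower), and 59.3 and 32.1 in MARCO-/- (1.85-fold). The remaining glycosidases were within 2-fold in both genotypes. Glb1, the beta-galactosidase that serves as a marker of senescent cells, had 28.2 and 15.4 in WT, and 23.5 and 18.3 in MARCO-/-. Gaa, which digests glycogen, had 21.4 and 32.8 in WT, and 25.3 and 33.1 in MARCO-/-, which were the only higher values with LPS in both genotypes among the glycosidases. Gla, the alpha-galactosidase that is deficient in Fabry disease, had 63.5 with PBS and 48.6 with LPS in WT, and 37.1 and 57.7 in MARCO-/-. This brightest probe set thus went in opposite directions, each under 2-fold. The second Gla probe set was lower with LPS in both genotypes. It had 12.9 and 6.24 in WT (2.07-fold lower), and 8.96 and 7.82 in MARCO-/- (1.145-fold lower).

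The other 4 lumenal proteins had lower values with LPS in both genotypes, of which 1 passed 2-fold in WT and 2 in MARCO-/-. Psap encodes prosaposin, the precursor of the saposins that present sphingolipids to their hydrolases. It had 1989 with PBS and 452 with LPS in WT (4.40-fold lower), and 1914 and 641 in MARCO-/- (2.98-fold lower). The second Psap probe set was 5.86-fold and 4.48-fold lower, so both passed in both genotypes. Lipa, the acid lipase that frees cholesterol from its esters, had 283 and 144 in WT (1.97-fold, under the threshold), and 319 and 145 in MARCO-/- (2.19-fold lower). Its other probe sets had ratios between 1.18-fold and 2.04-fold lower over both genotypes, and the mean of its probe sets is under 2-fold in MARCO-/- (-0.66 on the log2 scale).

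Grn encodes progranulin, which is split into granulins in the lysosome. It had 664 with PBS and 466 with LPS in WT, and 759 and 419 in MARCO-/-, both under 2-fold. Tpp1, a lysosomal tripeptidyl peptidase, had 256 and 194 in WT, and 269 and 231 in MARCO-/-. Its dimmer probe set was 2.30-fold lower in WT and 1.10-fold lower in MARCO-/-. Taking the 11 lumenal proteins as 1 group, 5 were lower in each genotype and none was higher, with a median log2 ratio of -0.98 in WT and -0.89 in MARCO-/-. Markers of macrophages (9 of 10 in each genotype) and of DC (5 and 6 of 9) were at least 2-fold lower on the same arrays. Of the activated DC markers, 2 of 4 were at least 2-fold higher in each genotype. The part of these cell type differences in the lumenal values was not tested.

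**Figure D2:**
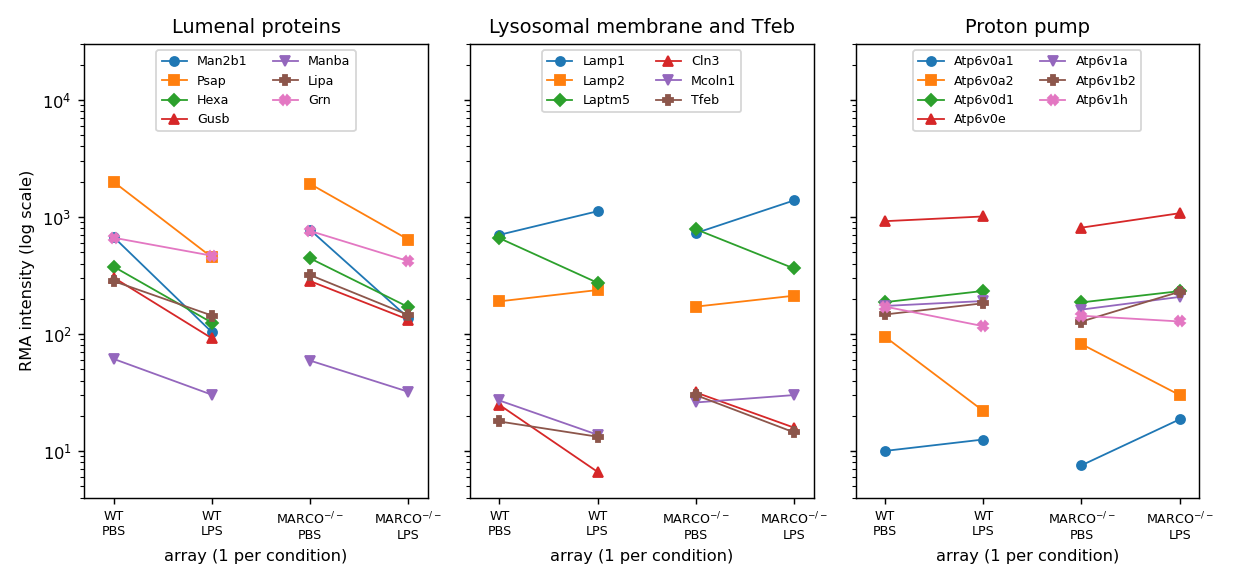
RMA intensity (log axis) of 20 of the 37 genes on the 4 arrays, in panels for lumenal proteins, for membrane proteins and Tfeb, and for the proton pump; each point is 1 array and a line joins PBS to LPS within a genotype. Psap goes from 1989 to 452 in WT, while Lamp1 goes from 703 to 1118 and Atp6v0e stays between 809.8 and 1076.

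Membrane proteins split by gene. Lamp1, an abundant glycoprotein of the lysosomal membrane, had 703 with PBS and 1118 with LPS in WT, and 727 and 1383 in MARCO-/-. Both LPS arrays were above both PBS arrays, by 1.59-fold and 1.90-fold, under the threshold. Lamp2, its relative with a role in chaperone-mediated autophagy, had 190.0 and 237 in WT, and 171 and 212 in MARCO-/-. All 3 Lamp2 probe sets were higher with LPS in both genotypes, by between 1.16-fold and 1.81-fold.

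Laptm5, a lysosomal membrane protein of haematopoietic cells that promotes the turnover of antigen receptors, moved the other way. It had 658 with PBS and 274 with LPS in WT (2.41-fold lower), and 785 and 363 in MARCO-/- (2.16-fold lower), and its second probe set was 2.97-fold and 3.07-fold lower. Cln3, a membrane protein that is lost in juvenile neuronal ceroid lipofuscinosis, had 24.8 and 6.65 in WT (3.73-fold lower), close to the background with LPS. In MARCO-/- it had 31.7 and 15.9, at a log2 ratio of -0.998 that lies just under the threshold. Its second probe set had a log2 ratio of -0.68 in WT and -0.66 in MARCO-/-, so the call in WT rests on 1 of 2 probe sets.

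Mcoln1 encodes the calcium channel TRPML1 of the lysosomal membrane, which signals to TFEB through calcineurin. It had 27.0 with PBS and 13.8 with LPS in WT (1.96-fold lower), and 26.0 and 30.1 in MARCO-/- (1.16-fold higher). The 3 probe sets were all lower with LPS in WT and all higher in MARCO-/-, at intensities between 5.72 and 30.1. Tfeb, the regulator itself, had 17.9 and 13.3 in WT, and 30.1 and 14.5 in MARCO-/- (2.08-fold lower). It has a single probe set, and the array with MARCO-/- PBS stood above the other 3.

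**Figure D3:**
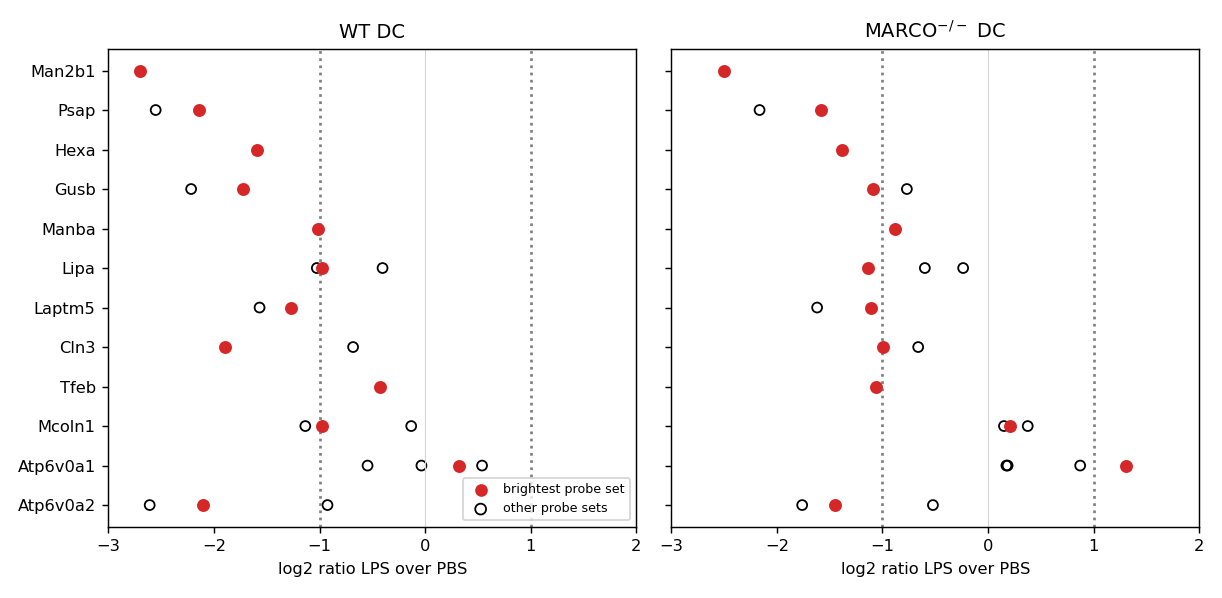
log2 ratio of LPS over PBS for every probe set of 12 genes, in WT DC (left) and MARCO-/- DC (right); filled red points are the brightest probe set of a gene, open points its other probe sets, and the dotted lines mark 2-fold. The probe sets of Psap and Laptm5 all lie past 2-fold, while those of Lipa, Cln3, Gusb and Atp6v0a2 lie on both sides of it in at least 1 genotype, and Man2b1, Hexa, Manba and Tfeb have 1 probe set each.

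The measured proton pump genes as a group had values with LPS close to those with PBS. No probe set carried the symbols Atp6v0c, Atp6v1c1, Atp6v1g1 or Atp6v1g3 alone, so these pump genes are not part of the group. Of 20 genes of the pump and its accessory proteins, 1 was at least 2-fold lower in WT, and 1 lower and 1 higher in MARCO-/-, with a median log2 ratio of 0.05 in WT and 0.11 in MARCO-/-. The median in WT was below 0 after quantile normalization (-0.01) and cyclic loess (-0.04). Of the 20 genes, 14 were above the median of all intensities on some array. Of these 14, 13 were within 2-fold in WT and 12 in MARCO-/-. Among the 10955 genes of the array that meet this condition, 8483 and 8853 were. Both called genes encode versions of the large a subunit of V0, which anchors the pump and decides in which membrane it works.

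Atp6v0a2, the a2 version found in the Golgi and endosomes, had an intensity of 94.6 with PBS and 22.0 with LPS in WT (4.29-fold lower), and 82.0 and 30.1 in MARCO-/- (2.72-fold lower). A second probe set was 6.10-fold and 3.39-fold lower, while the dimmest of the 3 had 9.59 and 5.05 in WT and missed 2-fold in both genotypes. Atp6v0a1, the a1 version, had 10.0 and 12.6 in WT, and 7.56 and 18.7 in MARCO-/- (2.47-fold higher). These are low intensities, and its other 3 probe sets were between 1.13-fold and 1.83-fold higher in MARCO-/-, all under the threshold. In WT these 3 differed in sign, from 1.46-fold lower to 1.45-fold higher. Atp6v0a4, the version of the kidney, lay between 2.41 and 2.80 on all arrays, at background. Tcirg1, which encodes the a3 version of lysosomes and osteoclasts but is not one of the chosen symbols, had 139 and 173 in WT, and 198 and 221 in MARCO-/-.

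The rest of V0 was within 2-fold. Atp6v0d1, the ubiquitous d subunit that couples the sectors, had 187 with PBS and 233 with LPS in WT, and 186 and 232 in MARCO-/-, so that the genotypes were almost equal. Atp6v0d2, the d version of osteoclasts and some macrophages, lay between 4.72 and 6.26, at background on all 4 arrays. Atp6v0b, a subunit of the proton-carrying ring, had 73.8 and 92.1 in WT, and 78.5 and 108 in MARCO-/-. All 3 Atp6v0b probe sets were higher with LPS in both genotypes, by between 1.12-fold and 1.42-fold. Atp6v0e, a small membrane subunit, had 919.8 and 1009 in WT, and 809.8 and 1076 in MARCO-/-, while its relative Atp6v0e2 lay between 2.53 and 2.93.

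In V1 none of 10 genes was called in any of the comparisons. Atp6v1a, the catalytic subunit, had 174 with PBS and 191 with LPS in WT, and 162 and 207 in MARCO-/-. Atp6v1b2, the other subunit of the ATP-hydrolysing ring, had 147 and 183 in WT, and 128 and 229.6 in MARCO-/- (1.80-fold), the largest V1 ratio in either genotype. Atp6v1h, which regulates the assembled pump, had 171 and 117 in WT (1.47-fold lower), and 143 and 128 in MARCO-/- (1.12-fold lower). Atp6v1d of the central stalk had 244 and 219 in WT, and 247 and 179 in MARCO-/-.

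Atp6v1e1 of the outer stalk had 153 with PBS and 196 with LPS in WT, and 157 and 174 in MARCO-/-. Atp6v1f of the central stalk had 590.4 and 561 in WT, and 649 and 707 in MARCO-/-. The tissue-restricted versions Atp6v1b1, Atp6v1c2, Atp6v1e2 and Atp6v1g2 lay between 2.72 and 4.57 on all arrays, at background. Together with Atp6v0a4, Atp6v0d2 and Atp6v0e2 they make up the 7 genes whose highest value was under 2 times the median of all intensities, and their ratios are ratios of background values.

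The accessory genes were within 2-fold as well. Atp6ap1, which helps assemble V0, had 222 with PBS and 265 with LPS in WT, and 230.0 and 276 in MARCO-/-. Atp6ap2, which encodes the prorenin receptor and also assists assembly, had 763 and 512 in WT, and 790.1 and 560.3 in MARCO-/-. Its 3 probe sets were all lower with LPS in both genotypes, by between 1.30-fold and 1.95-fold. The ratios of this gene and of the V0 and V1 genes above differ in direction under the 2-fold threshold, and with 1 array per condition no spread is known for them.

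The promoters of these genes were searched for the letters CACGTG, because they are the core of the element that TFEB binds. Windows of 250 bases before to 50 bases after each start were taken from RefSeq (GRCm38.p6) and were found for 33 of the 37 genes. Of these, 10 (30.3%) held CACGTG: Atp6v0b, Atp6v0d1, Atp6v0e, Atp6v1a, Cln3, Gaa, Gla, Glb1, Lamp1 and Mcoln1. This motif reads the same on both strands, so 1 match counts once. All 10 also held the longer TCACGTG, searched on both strands, which overlaps the shorter motif. In Atp6v0d1, Atp6v0e, Atp6v1a, Cln3, Gla and Mcoln1 it was read from both strands at 1 or more sites. Of the 13605 genes of the array with a window, 10.2% held the shorter motif and 5.79% the longer one. Of all windows in the table, 7.15% and 3.77% did. Other lysosomal genes, from a list described below, held it in 10 of 40 genes with a window (25.0%).

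The last 100 bases before the start are shown for the 4 genes with the lowest mean log2 ratio among those at least 2-fold lower in both genotypes that have a window, and for 3 genes with CACGTG that were not. The first 4 were taken by that order, and Lamp1, Mcoln1 and Atp6v0b were chosen after their matches were seen. Capitals mark CACGTG, and each sequence reads 5′ to 3′ on the strand of the gene. Psap has a second start, whose window did not hold the letters either.
Man2b1, chr8:85083169-85083268, plus strand: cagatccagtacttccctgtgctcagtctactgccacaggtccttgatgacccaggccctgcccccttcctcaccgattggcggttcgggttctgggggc
Psap, chr10:60277528-60277627, plus strand: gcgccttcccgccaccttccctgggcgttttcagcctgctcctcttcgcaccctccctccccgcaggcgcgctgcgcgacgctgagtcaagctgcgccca
Hexa, chr9:59539440-59539539, plus strand: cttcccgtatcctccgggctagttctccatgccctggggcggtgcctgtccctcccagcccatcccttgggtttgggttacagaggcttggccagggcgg
Gusb, chr5:130003050-130003149, minus strand: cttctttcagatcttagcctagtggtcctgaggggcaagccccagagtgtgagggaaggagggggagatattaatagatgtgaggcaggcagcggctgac
Lamp1, chr8:13159061-13159160, plus strand: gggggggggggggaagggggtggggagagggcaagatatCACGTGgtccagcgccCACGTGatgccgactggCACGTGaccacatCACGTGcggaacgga
Mcoln1, chr8:3500419-3500518, plus strand: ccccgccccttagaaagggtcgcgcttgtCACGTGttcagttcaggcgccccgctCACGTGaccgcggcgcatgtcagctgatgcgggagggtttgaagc
Atp6v0b, chr4:117887330-117887429, minus strand: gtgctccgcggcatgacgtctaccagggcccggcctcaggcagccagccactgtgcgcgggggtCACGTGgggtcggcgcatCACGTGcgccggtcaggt

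None of the 5 genes with a window that were at least 2-fold lower in both genotypes (Gusb, Hexa, Laptm5, Man2b1 and Psap) held CACGTG. These 5 were chosen by their response, and with 10.2% of array genes holding the letters, so few genes cannot show a lack of them. The window of Lamp1, a gene picked after its matches were seen, held CACGTG 4 times within the 61 bases before its start. Among genes above the median of all intensities with a window, the 10 with CACGTG had a median log2 ratio of LPS over PBS of 0.14 in WT and 0.37 in MARCO-/-. The 17 without it had -0.51 and -0.86. Of the 10 genes with it, Cln3 alone was at least 2-fold lower in WT and none was in MARCO-/-. Of the 17 without it, 6 were lower in WT and 7 in MARCO-/-. The 10 included 4 pump and 3 lumenal genes, and the 17 included 6 and 8. The 3 lumenal genes with CACGTG had medians of -0.39 in WT and 0.39 in MARCO-/-, and the 8 without it -1.30 and -1.11. For pump genes the medians were 0.23 and 0.38 with it, and 0.09 and 0.13 without it. Among all genes of the array that met the same conditions, the medians with and without CACGTG were both 0.00 in WT, and 0.05 and 0.03 in MARCO-/-. At least 2-fold lower in WT were 123 of 1036 such genes with CACGTG and 1015 of 7834 without it. In MARCO-/- 77 and 743 were. Among the other lysosomal genes that met these conditions, the 10 with CACGTG had medians of 0.04 in WT and -0.38 in MARCO-/-. The 29 without it had -0.49 and -0.39. Of these 10, Sgsh was at least 2-fold lower and Lgmn at least 2-fold higher in both genotypes. These are descriptions of a small set of windows, with no test.

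Other lysosomal genes were given by a list of 60 symbols, of which 50 had a probe set. With LPS 11 of the 50 were at least 2-fold lower and 4 higher in WT, and 11 were lower and 6 higher in MARCO-/-. The shares over all genes were 8.31% lower and 6.20% higher in WT, and 5.98% and 6.32% in MARCO-/-. Of the 50 genes, 49 were above the median of all intensities on some array. Among such genes of the array, 12.9% were lower and 9.62% higher in WT, and 9.33% and 9.86% in MARCO-/-. Their median log2 ratio was -0.36 in WT and -0.35 in MARCO-/-. In both genotypes 10 were lower and 4 were higher. Of all genes, 4.55% were lower and 3.89% higher in both.

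The lowest ratios of this list were those of Ppt1 and Gm2a. Ppt1, a thioesterase that removes palmitate from proteins, had 1473 with PBS and 77.3 with LPS in WT (19.1-fold lower), and 1161 and 62.4 in MARCO-/- (18.6-fold lower). Its second bright probe set had 507 and 19.4 in WT, and a dim one stayed between 3.34 and 3.58. Gm2a, the activator that works with Hexa on ganglioside GM2, had 1869.9 and 161 in WT (11.6-fold lower), and 1919 and 129 in MARCO-/- (14.9-fold lower), and the dimmest of its 3 probe sets missed 2-fold in WT. Asah1, the acid ceramidase, was 2.70-fold and 2.82-fold lower, Sgsh of heparan sulfate breakdown 4.28-fold and 4.13-fold lower, and Fuca1, a fucosidase, 2.44-fold and 2.01-fold lower. Sgsh and Fuca1 each had a dim probe set that missed 2-fold. Sort1, a sorting receptor for lysosomal enzymes, was 4.07-fold and 2.57-fold lower, and its 2 dim probe sets missed 2-fold. The brighter of these 2 was higher with LPS, with 5.87 and 8.51 in WT, and 6.96 and 8.51 in MARCO-/-.

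Of the rest, Cd68, a macrophage and DC glycoprotein of endosomes, was 3.99-fold and 2.73-fold lower, Dnase2a, an acid DNase, 2.73-fold and 2.25-fold, and Pla2g15, a phospholipase, 2.70-fold and 3.13-fold. Tpcn1, a channel of endosomes and lysosomes, was 2.35-fold and 2.87-fold lower. Ids of heparan sulfate breakdown was 2.40-fold lower in WT and 1.85-fold in MARCO-/-, and Scarb2, a membrane protein, 1.80-fold lower in WT and, with 181 and 90.4, just past the threshold in MARCO-/-. The other probe sets of Pla2g15, Tpcn1, Ids and Scarb2 all missed 2-fold in both genotypes.

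Some lysosomal genes were higher on the same arrays. Npc2, a lumenal protein that carries cholesterol, had 1088 with PBS and 3335 with LPS in WT (3.07-fold higher), and 1012 and 3206 in MARCO-/- (3.17-fold higher), and all 3 of its probe sets passed 2-fold in both genotypes. Lgmn, an asparagine-specific protease of antigen processing, was 2.40-fold and 2.11-fold higher. Laptm4b, a membrane relative of Laptm5, was 2.31-fold and 2.17-fold higher, in all 3 probe sets. Rragd, a GTPase that links the lysosome to mTORC1, had 7.91 and 53.2 in WT (6.72-fold higher), and 7.45 and 52.6 in MARCO-/- (7.06-fold higher), although its second probe set, at background, missed 2-fold. Clcn7, the chloride transporter that supports acidification, and Gnptab, which makes the mannose 6-phosphate tag of lysosomal enzymes, were 2.25-fold and 2.32-fold higher in MARCO-/- alone, with 1.11-fold and 1.13-fold in WT. Their other probe sets missed 2-fold.

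**Figure D4:**
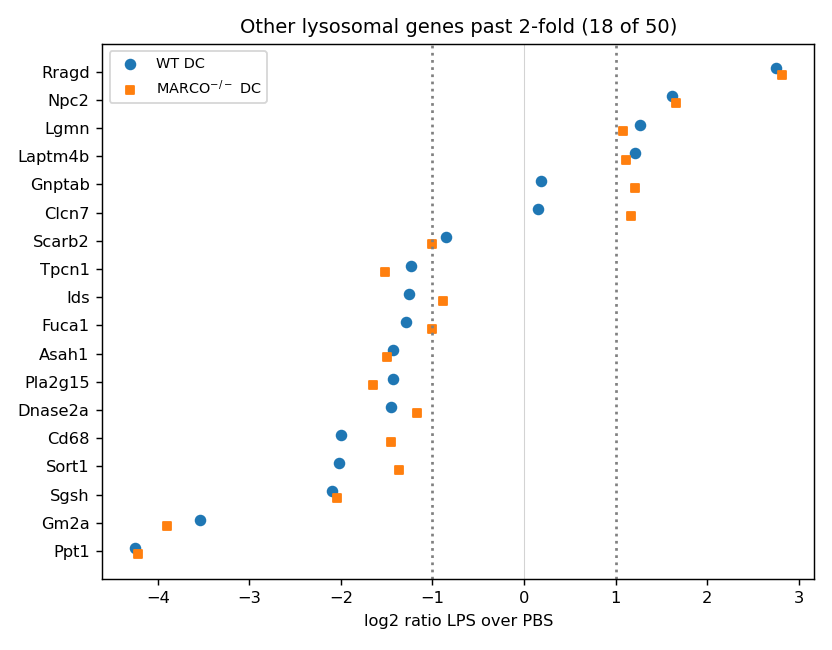
log2 ratio of LPS over PBS in WT DC (blue circles) and MARCO-/- DC (orange squares) for the 18 of 50 other lysosomal genes at least 2-fold higher or lower in either genotype, by the brightest probe set; the dotted lines mark 2-fold. Ppt1 lies lowest, at -4.25 and -4.22, and Rragd highest, at 2.75 and 2.82.

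With PBS none of the 37 genes was at least 2-fold higher or lower in MARCO-/- than in WT. Of all genes, 0.760% were higher and 0.287% lower, and 1.19% and 0.447% of those above the median of all intensities. The median log2 ratio of the 37 genes was 0.00, with a range from -0.77 to 0.75. The lowest was Gla, with 63.5 in WT and 37.1 in MARCO-/- (1.71-fold lower), and the highest Tfeb, with 17.9 and 30.1 (1.68-fold higher). Among bright lumenal genes, Psap had 1989 in WT and 1914 in MARCO-/-, Man2b1 672 and 776, Hexa 376 and 443, and Gusb 303 and 283. On these arrays 2 of 10 macrophage markers, C1qb and C1qc, were at least 2-fold above WT in MARCO-/-, and all 10 summed to 1896 in WT and 3106 in MARCO-/-. Their part in these values was not tested.

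With LPS 2 of the 37 genes, Cln3 and Mcoln1, had 2-fold or more of their WT intensity in MARCO-/-, against 2.09% of all genes. None was lower, against 1.31%. Among genes above the median of all intensities, 3.26% were higher and 2.01% lower. The split over all genes moved with the scaling, from 357 higher and 224 lower as deposited to 498 and 199 with the arrays centred on their medians, 232 and 263 after quantile normalization, and 241 and 236 after cyclic loess. Cln3 had 6.65 in WT and 15.9 in MARCO-/- (2.39-fold higher), but its second probe set had 9.65 and 8.77. Mcoln1 had 13.8 and 30.1 (2.18-fold higher), and 1 of its other 2 probe sets was 2.04-fold higher while the other was 1.26-fold higher. Mcoln1 missed 2-fold after quantile normalization and after cyclic loess, and both genes did where 16 was added to all intensities and where the probe sets of a gene were averaged. Tcirg1 and the other 49 lysosomal genes of the list were all within 2-fold between the genotypes, with PBS and with LPS.

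**Figure D5:**
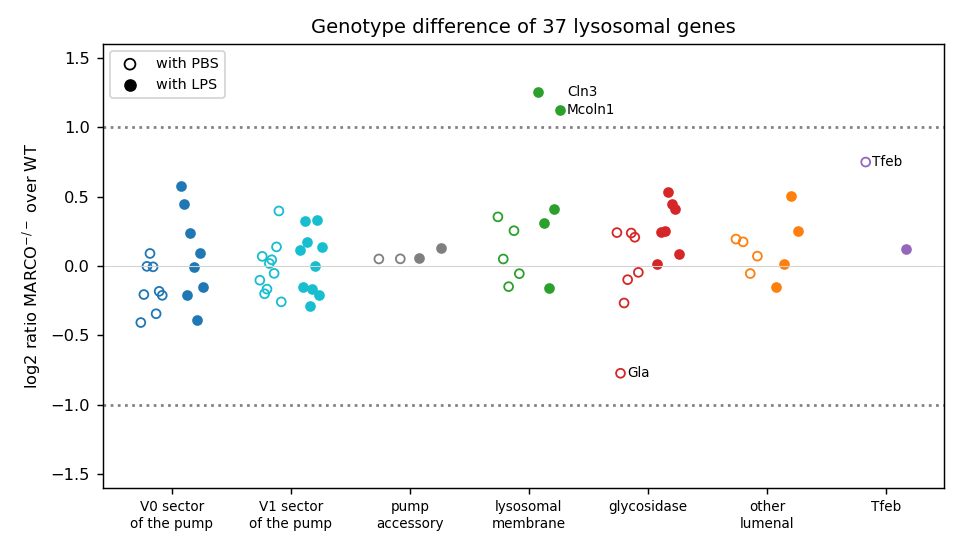
log2 ratio of MARCO-/- over WT DC with PBS (open points) and with LPS (filled points) for the 37 genes, grouped by role; each point is 1 gene and the dotted lines mark 2-fold. Cln3 at 1.26 and Mcoln1 at 1.13 are the points past 2-fold, both with LPS.

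The LPS response in MARCO-/- less that in WT is the difference of both ratios. It was at least 1 on the log2 scale for 2 of the 37 genes, Mcoln1 (1.18) and Gla (1.02), against 3.40% of all genes. None was at or below -1, against 2.53% of all genes. Among genes above the median of all intensities these shares were 5.29% and 3.66%. The second Gla probe set had a difference of 0.86. By their brightest probe sets, all 6 genes that were lower in both genotypes were lower by less in MARCO-/-. The differences were 0.15 to 0.66 on the log2 scale with a median of 0.38. That direction was also seen in 58.4% of all genes above the median of all intensities, whose median difference was 0.10. After quantile normalization the 6 genes all differed in that direction, with a median of 0.24, where the median over those genes was -0.04. After cyclic loess the values were 0.29 and -0.02. The 6 genes were chosen by their low ratios on these arrays, whereas the genes set beside them include higher and unchanged ones. The difference over all genes lower in both genotypes was not computed, so these values cannot show a trait of the 6. Among the 6, Atp6v0a2 had the largest difference and Laptm5 the smallest. The second Laptm5 probe set went the other way, 2.97-fold lower in WT and 3.07-fold lower in MARCO-/-. The other lysosomal genes that were lower in both genotypes differed in direction by their brightest probe sets. Asah1, Gm2a, Pla2g15 and Tpcn1 were lower by more in MARCO-/-, and Cd68, Dnase2a, Fuca1, Ppt1, Sgsh and Sort1 by less. No spread is known for these differences, because each rests on 4 single arrays, which the comparisons of genotypes and of treatments share.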

How the data were processed

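RNA of CD11c-selected splenic DC was measured on Affymetrix arrays, 1 per condition. The paper names them Mouse Genome 430 2.0, whereas the deposited probe set names carry the tag PM, so the exact array version is uncertain here. The deposited values are linear intensities that the authors background-corrected, normalized and summarized with RMAexpress (version not given in the sources used here). Depth has no counterpart on arrays, and their number limits the precision.

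Here nothing was added before log2. The 104 Affymetrix controls among 45141 probe sets were dropped. In the annotation used, 28898 probe sets have exactly 1 symbol, 551 several and 15588 none. A gene is its brightest probe set by mean log2 intensity, and a call is a fold of at least 2. No test was made. The chosen genes, roles and lists were set with earlier results of these data known. All chosen genes are named, and from the list of other lysosomal genes those at least 2-fold changed. Alternatives were other probe set choices, scalings, filters, an added 16 and thresholds of 1.5 and 3. Leaving out an array is not possible with 1 per condition. The calling steps were tested on simulated data. Promoter windows came from RefSeq tables. Python 3.11.15, numpy 2.4.6, pandas 2.3.3, matplotlib 3.10.9, R 4.3.3 and limma 3.58.1 were used.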

Additional observations from a re-analysis of the deposited data

How the results depend on the processing

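Of 124 counts and medians recomputed, 103 stayed within a factor of 1.5 and 21 did not, and no called ratio changed sign. For medians this factor is wider than the reported medians themselves, so even a change of sign counted as staying. The median of MARCO-/- over WT with PBS went from -0.0036 to 0.027 after cyclic loess. Counts of 0 cannot rise at 3-fold or under the intensity filters. Part of the 103 was therefore fixed in advance. The causes were not tested, beyond the number of genes or probe sets each setting leaves. With all 66 probe sets, 16 were lower with LPS in WT (8 genes as reported) and 6 were higher in MARCO-/- than in WT with LPS (2 as reported). Without x_at, s_at and a_at probe sets, which leaves 27 genes, 5 were lower with LPS in WT and 4 in MARCO-/-. Man2b1, Psap, Hexa and Laptm5 have no probe set left there. With a highest log2 value of at least 8, which leaves 13 genes, 5 were lower with LPS in WT, the median in MARCO-/- was -0.86, and 0 were higher in MARCO-/- with LPS over PBS or over WT. Averaging probe sets, or adding 16, also gave 0 higher in both of these comparisons (1 and 2 as reported). Quantile normalization and cyclic loess each gave 1 gene higher in MARCO-/- than in WT with LPS. At 1.5-fold, 2 genes were higher with LPS in WT and 4 in MARCO-/-, and with PBS 1 was higher and 1 lower in MARCO-/- than in WT. At 3-fold, 0 were higher and 1 lower with LPS in MARCO-/-, and 0 were higher in MARCO-/- than in WT with LPS. Man2b1, Psap, Hexa, Laptm5 and Atp6v0a2 passed 2-fold in both genotypes under each of the per-gene settings that measured them. Manba in WT fell under 2-fold after quantile normalization, cyclic loess and the added 16, Tfeb in MARCO-/- and Cln3 in WT with the added 16. No paired analysis was possible because there is 1 array per condition.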
